A study of Mus musculus with 12 samples.

Results

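The 10 genes described here encode enzymes that make eicosanoids and pro-resolving lipid mediators, together with the membrane protein that 5-lipoxygenase needs, and were chosen by gene symbol out of 55414 genes in the table. They are Alox5, Alox5ap, Alox12, Alox15, Lta4h, Ltc4s, Ptgs1, Ptgs2, Ptges and Hpgds. RNA was sequenced from whole lungs of 12 mice on day 4 after exposure to lipopolysaccharide (LPS), a bacterial cell wall component that injures the lung when inhaled. IL-10 B-WT mice (n = 6, the controls) were set against IL-10 B-KO mice (n = 6, the knockouts), in which Il10 was removed from B cells by crossing Il10 flox/flox mice with mb1cre mice. The question was which genes differ in the injured lung when B cells cannot make the anti-inflammatory cytokine IL-10. All 12 mice received LPS and had a C57BL/6 J background, whether the controls carried the floxed allele and how old the mice were is not given in the sources used here, and lungs without LPS are not analysed here.

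The values are in TPM, a unit that allows for the length of each gene and gives every lung the same total, so that levels of different genes can be set side by side. Markers of the lung epithelium summed to between 20109 and 110473 TPM in every lung. Il10 itself lay between 0 and 0.88 TPM in control lungs and between 0 and 0.58 TPM in knockout lungs. At levels this low its removal could not be seen in these values. With other methods, the paper reports less IL-10 in knockout lungs after LPS and checked the deletion in sorted lung B cells. Cd79a, also named Mb1, the gene whose locus drives the Cre across the B cell lineage, was lower in all 6 knockout lungs (log2 fold change -4.16, limma adjusted p = 0.0222), and all 5 B cell markers had a limma unadjusted p of at most 0.05 in the same direction. Control replicate 1 stood apart from the other controls in its neutrophil marker sum (2537 TPM, next control 1116) and in its monocyte and interstitial macrophage marker sum (2312 TPM, next control 1019). Of these 2 sums, knockout replicate 2 stood apart in that of monocytes and interstitial macrophages (398 TPM, next knockout 1514). Its neutrophil sum of 1054 TPM was near that of replicate 1 (1290 TPM). Knockout replicate 2 also had the highest knockout sums for lung epithelium (110473 TPM, next knockout 45516) and endothelium (1523 TPM, next knockout 1115). The same held for mast cells and basophils (146 TPM, next knockout 77.3) and for B cells (66.6 TPM, next knockout 42.9). Its epithelial sum was mostly 1 gene, Scgb1a1 (highest knockout value 92710 TPM). Its mast cell and basophil sum was mostly Kit (highest knockout value 136 TPM). Calls and correlations are therefore also given without these 2 lungs.

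Eicosanoids are short-lived lipid signals made from arachidonic acid after phospholipases A2 free it from membranes. 5-Lipoxygenase, presented with its substrate by the protein encoded by Alox5ap, starts the leukotrienes, among which leukotriene B4 attracts neutrophils and the cysteinyl leukotrienes tighten airways and make vessels leak. Cyclooxygenases start the prostaglandins and thromboxane, and the other lipoxygenases contribute to lipoxins and resolvins, lipids known for helping inflammation to end.

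In knockout lungs the mean level of 8 of the 9 members that could be tested was above that in control lungs (log2 fold change above 0 in 88.9% of members and in 63.2% of all 15148 genes tested), but no difference passed the threshold. Alox15, at or below 1.46 TPM in every lung, was too low for the test across genes. A gene was called when its limma p, adjusted over all genes by Benjamini-Hochberg, was at most 0.05 and its log2 fold change on log2(TPM + 1) at least 1 in size. This rule called 0 of 9 members and 75 of all genes (0.495%, of which 0.0264% higher and 0.469% lower in knockouts), with 3 members and 12.5% of all genes at an unadjusted p of at most 0.05 (6.83% of all genes higher in knockouts, the direction of all 3 members, and 5.71% lower). The 3 were Alox5ap, Ltc4s and Alox5, of which Alox5ap and Ltc4s also had an exact permutation p of at most 0.05. The two-sided exact permutation test, done gene by gene over the 924 arrangements of 12 lungs (smallest possible p 0.00216), gave p of at most 0.05 for 2 of 10 members and for 11.2% of all genes tested. Values of the genotypes overlapped for all 10 members, and they were separate for 1.02% of all genes. The median log2 fold change was 0.68 over the 9 members and 0.10 over all genes. Whole lung was sequenced, so that more cells of a type and more RNA per cell cannot be told apart.

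**Figure D1:**
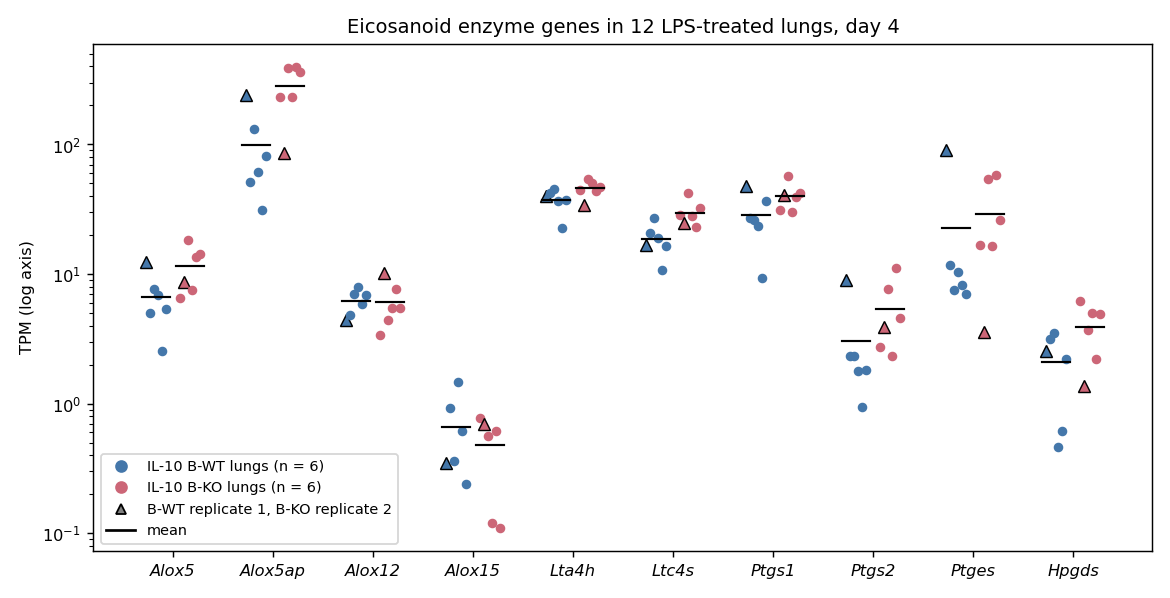
Level of each of the 10 genes (x axis) in TPM on a log axis (y axis), with 1 point per lung, blue for IL-10 B-WT (n = 6), red for IL-10 B-KO (n = 6), a bar at each group's mean and triangles for control replicate 1 and knockout replicate 2. Alox5ap lay highest, from 31.1 to 396 TPM, Alox15 lay lowest, from 0.11 to 1.46 TPM, and the groups overlapped for every gene.

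The 250 bases upstream of the start are shown for Ptgs1 and Ptgs2, the cyclooxygenase genes, which carry out the same reaction, and for Alox5, the member whose level moved most closely with Ptgs2 over the lungs. Sequences are from RefSeq on GRCm38.p6, read 5′ to 3′ on the gene's strand and ending at the base before the start. They lie at chr2:36230176-36230425 (plus strand) for Ptgs1, chr1:150099781-150100030 (plus strand) for Ptgs2 and chr6:116461179-116461428 (minus strand) for Alox5. Capitals mark matches, on either strand, to 6 motifs that were chosen after the values were seen.
Ptgs1: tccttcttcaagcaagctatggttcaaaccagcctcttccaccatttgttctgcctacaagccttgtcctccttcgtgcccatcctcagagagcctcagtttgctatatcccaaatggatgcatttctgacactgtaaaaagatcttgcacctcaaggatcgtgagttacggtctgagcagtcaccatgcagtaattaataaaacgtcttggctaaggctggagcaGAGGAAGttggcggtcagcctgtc
Ptgs2: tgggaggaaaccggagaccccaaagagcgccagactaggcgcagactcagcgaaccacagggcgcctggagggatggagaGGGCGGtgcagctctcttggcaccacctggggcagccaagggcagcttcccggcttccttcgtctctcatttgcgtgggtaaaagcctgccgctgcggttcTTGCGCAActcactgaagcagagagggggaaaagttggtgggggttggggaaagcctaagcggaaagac
Alox5: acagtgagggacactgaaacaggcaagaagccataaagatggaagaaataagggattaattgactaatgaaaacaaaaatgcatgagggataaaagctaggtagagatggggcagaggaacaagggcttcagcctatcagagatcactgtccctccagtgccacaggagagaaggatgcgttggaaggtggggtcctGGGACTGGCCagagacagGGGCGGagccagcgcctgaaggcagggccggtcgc

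The Ptgs1 stretch held the core of PU.1 sites (GAGGAAG, 24 bases before the start), a myeloid transcription factor, and no other motif searched. In Ptgs2 there was a GC box of the Sp1 type (GGGCGG, 170 bases before the start) and a C/EBP core (TTGCNNAA, 69 bases before the start), with no match to the PU.1 core. The Alox5 stretch held a GC box at 35 bases before the start. At 53 bases it held a pattern looser than the NF-kB consensus (GGGA, then 4 bases of any kind, then CC). These 3 stretches shared only the GC box, in 2 of them. Of the 8 members with a sequence in the table (all but Alox5ap and Alox15), 4 held the GC box and 3 the loose NF-kB pattern. The PU.1 core was in 2, the C/EBP core in 2, and the TATA box (TATAAA) and the STAT core (TTCNNNGAA) in 0. Among 32851 promoters of the same length the shares were 32.7%, 17.6%, 10.6%, 9.56%, 12.4% and 7.02% in that order. A match describes the letters only.

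Alox5 encodes 5-lipoxygenase, which opens the leukotriene pathway (ENSMUSG00000025701, chr6:116410077-116461178, minus strand, GRCm38). Its level ran from 2.53 to 12.4 TPM with a median of 6.15 in control lungs, and from 6.48 to 18.2 TPM with a median of 11.1 in knockout lungs. In 3 knockout lungs the level was above every control lung, 3 control lungs lay below every knockout lung, and all 6 knockout lungs were above the control median. The means were 6.65 ± 3.34 and 11.5 ± 4.57 TPM (SD, n = 6 each). The log2 fold change of 0.74 (SE 0.32) did not pass (limma unadjusted p = 0.0358, adjusted p = 0.373, exact permutation p = 0.0563). With any 1 lung left out the log2 fold change lay between 0.54, without control replicate 5 (exact permutation p = 0.117), and 0.92, without control replicate 1 (0.0216). With the replicate number as a block its limma unadjusted p was 0.0668, while those of Alox5ap and Ltc4s stayed under 0.05.

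Alox5ap encodes the 5-lipoxygenase activating protein, which hands arachidonic acid to the enzyme at the nuclear membrane (ENSMUSG00000060063, chr5:149264767-149288153, plus strand). In control lungs it stood at 239.5, 50.9, 131, 61.6, 31.1 and 81.8 TPM in replicates 1 to 6. The knockout lungs held 231.8, 85.9, 391, 232.1, 396 and 359.9 TPM. Replicate 1 was the highest of the controls and lay above 3 knockout lungs, replicate 2 was the lowest of the knockouts and lay below 2 controls, and the other 5 knockout lungs were all above the other 5 controls. The mean was 99.3 ± 76.7 TPM in controls and 283 ± 122 TPM in knockouts (SD, n = 6 each), with a log2 fold difference of 1.65 (SE 0.48), the largest among the members (limma adjusted p = 0.195, exact permutation p = 0.0173). The exact p stayed between 0.00649 and 0.0368 with any 1 lung left out. Without control replicate 1 the gene was called, at a log2 fold change of 1.97 and a limma adjusted p of 0.0312.

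Lta4h encodes the hydrolase that turns leukotriene A4 into leukotriene B4 (ENSMUSG00000015889, chr10:93453411-93484875, plus strand). It varied little, from 22.7 to 45.2 TPM with a median of 38.9 in controls and from 34.1 to 54.4 TPM with a median of 45.9 in knockouts. The lowest lung was control replicate 5, and 3 knockout lungs were above all controls. The means of 37.4 ± 7.85 and 45.7 ± 6.87 TPM (SD, n = 6 each) gave a log2 fold change of 0.30 (SE 0.18, limma adjusted p = 0.480, exact permutation p = 0.0866). With any 1 lung left out the log2 fold change lay between 0.17, without control replicate 5 (exact permutation p = 0.175), and 0.38, without knockout replicate 2 (0.0152).

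Ltc4s encodes leukotriene C4 synthase, which joins leukotriene A4 to glutathione and so opens the cysteinyl leukotriene branch (ENSMUSG00000020377, chr11:50236461-50238616, minus strand). Levels in control replicates 1 to 6 were 16.7, 20.7, 27.3, 19.1, 10.8 and 16.5 TPM. In knockout replicates 1 to 6 they were 28.4, 24.8, 42.3, 28.1, 23.3 and 32.4 TPM. Only control replicate 3 reached into the range of the knockout lungs, and 4 knockout lungs lay above all controls. The mean was 18.5 ± 5.46 against 29.9 ± 6.85 TPM (SD, n = 6 each), and the log2 fold change was 0.68 (SE 0.21, limma unadjusted p = 0.00583, adjusted p = 0.236). Its exact permutation p of 0.00649 was the smallest among the members, and it lay between 0.00216 and 0.0152 with any 1 lung left out. The log2 fold change stayed under the minimum of 1 in all 21 alternatives run, from 0.48 to 0.80. An antisense gene that overlaps it, Gm26542, was at 0.66 to 2.09 TPM, and whether strand was used in counting is not given in the sources used here.

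Alox12 encodes the platelet-type lipoxygenase (ENSMUSG00000000320, chr11:70241457-70255353, minus strand). It was the member with a log2 fold change below 0, at -0.060 (SE 0.23, limma adjusted p = 0.920, exact permutation p = 0.801). control lungs ran from 4.39 to 8.0 TPM with a median of 6.36, and knockout lungs from 3.36 to 10.1 TPM with a median of 5.46. The highest and the lowest lung of all 12 were both knockouts, replicate 2 at 10.1 TPM and replicate 1 at 3.36 TPM. The sign turned when some single lungs were left out (log2 fold change from -0.20 to 0.066), so that no direction can be given.

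Alox15 encodes the lipoxygenase that macrophages and eosinophils use for lipoxin and resolvin precursors (ENSMUSG00000018924, chr11:70344152-70352031, minus strand). Low in every lung, it ran from 0.24 to 1.46 TPM with a median of 0.485 in controls and from 0.11 to 0.78 TPM with a median of 0.585 in knockouts. The medians and the means stood in opposite order (means 0.657 ± 0.463 and 0.480 ± 0.293 TPM, SD, n = 6 each), and the exact permutation p was 0.483. Of the eosinophil markers, 1 of 5 passed the filter on low values, their sum lay between 1.44 and 9.33 TPM over the 12 lungs, and Epx, Prg2 and Ccr3 were listed at 0 in some lungs.

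Ptgs1 encodes the cyclooxygenase that most tissues make constantly (ENSMUSG00000047250, chr2:36230426-36252272, plus strand). Its range was 9.29 to 47.9 TPM with a median of 26.6 in controls and 30.3 to 57.4 TPM with a median of 40.0 in knockouts. The highest control was replicate 1, 4 controls lay below all knockouts, and 1 knockout lay above all controls. The difference of means, 28.4 ± 12.97 against 40.3 ± 9.81 TPM (SD, n = 6 each), was a log2 fold change of 0.60 (SE 0.31, limma adjusted p = 0.441, exact permutation p = 0.0887). Leaving out single lungs moved it from 0.33, without control replicate 5 (exact permutation p = 0.175), to 0.78, without control replicate 1 (0.0152).

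Ptgs2 encodes the cyclooxygenase that inflammatory signals induce (ENSMUSG00000032487, chr1:150100031-150108227, plus strand). In control replicates 1 to 6 the level was 8.95, 2.32, 2.33, 1.79, 0.94 and 1.82 TPM. It was 2.72, 3.87, 7.63, 2.35, 11.2 and 4.57 TPM in knockout replicates 1 to 6. Control replicate 1 held more than every knockout lung but replicate 5, and the other 5 controls lay below all 6 knockouts. With all lungs the means were 3.03 ± 2.95 and 5.39 ± 3.41 TPM (SD, n = 6 each), and the log2 fold change was 0.73 (SE 0.40, limma adjusted p = 0.455, exact permutation p = 0.128). Without control replicate 1 the log2 fold change was 1.04 (limma adjusted p = 0.0731, exact permutation p = 0.0108), and without knockout replicate 5, the highest lung, it was 0.52 (limma adjusted p = 0.740, exact permutation p = 0.253).

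Ptges encodes the microsomal prostaglandin E synthase that works with the inducible cyclooxygenase (ENSMUSG00000050737, chr2:30889471-30929863, minus strand). Its log2 fold change had the largest SE among the members. The controls held 91.1, 11.8, 7.57, 10.4, 8.25 and 7.02 TPM in replicates 1 to 6, and the knockouts 16.9, 3.55, 54.2, 16.5, 58.0 and 26.0 TPM. The highest lung of all 12 was a control, replicate 1, and the lowest a knockout, replicate 2, while the other 5 knockouts lay above the other 5 controls. Over all lungs the means were 22.7 ± 33.6 and 29.2 ± 22.1 TPM (SD, n = 6 each), with a log2 fold change of 0.65 (SE 0.68, limma adjusted p = 0.682, exact permutation p = 0.413). Without knockout replicate 5 the log2 fold change was 0.37 (exact permutation p = 0.652), and without control replicate 1 it was 1.18 (exact permutation p = 0.0974). Leaving out control replicate 1 and knockout replicate 2 together gave a log2 fold change of 1.64 and a limma adjusted p of 0.00916. Since these lungs were picked for standing against their genotype, that value is a description.

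Hpgds encodes the haematopoietic prostaglandin D synthase of mast cells, Th2 cells and some macrophages (ENSMUSG00000029919, chr6:65117293-65144908, minus strand). Its level was 0.46 to 3.51 TPM with a median of 2.40 in controls and 1.38 to 6.23 TPM with a median of 4.29 in knockouts. Knockout lungs exceeded all controls in 4 cases, and replicates 2 and 5 of the knockouts lay within the control range. The log2 fold change was 0.69 (SE 0.35, limma adjusted p = 0.434, exact permutation p = 0.108) between means of 2.09 ± 1.29 and 3.895 ± 1.83 TPM (SD, n = 6 each). With any 1 lung left out the log2 fold change lay between 0.50, without control replicate 4 (exact permutation p = 0.206), and 0.88, without knockout replicate 2 (0.0368). Of 9 mast cell and basophil markers 4 were tested, with 1 higher and 2 lower at a limma unadjusted p of at most 0.05. Their sum was 86.8 to 131.9 TPM in controls and 45.7 to 146.4 TPM in knockouts. The mean was lower in knockouts for 7 of the 9, namely Cpa3, Mcpt4, Cma1, Tpsb2, Ms4a2, Fcer1a and Kit, and higher for Mcpt8 and Cd200r3, which are better known in basophils. Kit made up most of the sum, with means of 98.6 and 68.0 TPM, so that the sum mainly follows Kit. Whether the level of Kit came from mast cells was not tested. Cpa3, a mast cell protease gene, had a log2 fold change of -1.01 (limma adjusted p = 0.0961). The part of mast cells in the Hpgds values was not tested. Tpsb2, Fcer1a and Mcpt8 were listed at 0 in some lungs. The Th2 and ILC2 markers, 2 of 6 tested, had 1 higher and 1 lower.

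**Figure D2:**
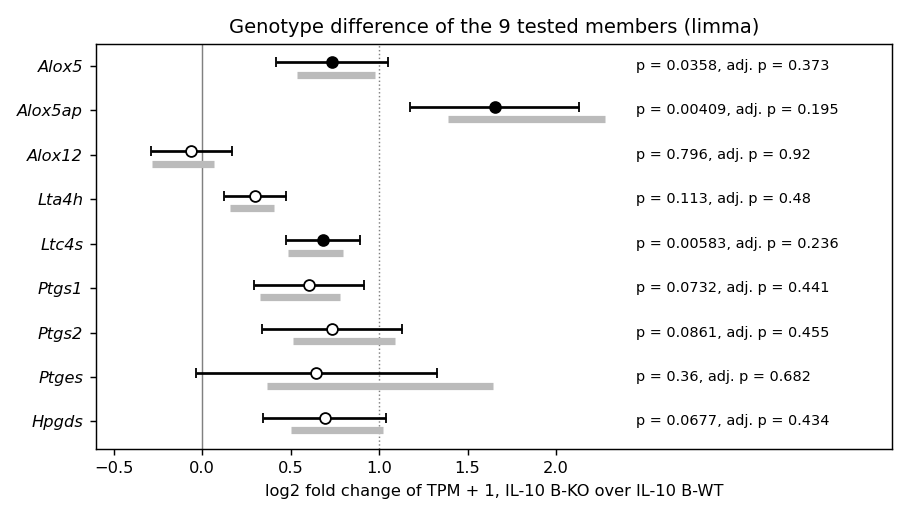
Log2 fold change of TPM + 1 (x axis, IL-10 B-KO over IL-10 B-WT) for each tested gene (y axis), with the limma standard error as a bar, filled points for an unadjusted p of at most 0.05, and a grey bar below for the range over all alternatives run. Alox5ap stood at 1.65, Alox12 at -0.060 and the other 7 between 0.30 and 0.74, all with adjusted p above 0.05.

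The outcome of the call rule depended on the 2 lungs that stood apart. Leaving out control replicate 1 raised the number of called members from 0 to 1 (Alox5ap) and of all genes from 75 to 604, and left 5 members (of 10) and 24.5% of all genes at an exact permutation p of at most 0.05, with Alox5 (0.0216), Ptgs1 (0.0152) and Ptgs2 (0.0108) beside Alox5ap and Ltc4s. Without knockout replicate 2 no member was called, 4 members and 17.1% of all genes had an exact permutation p of at most 0.05, now with Lta4h (0.0152) and Hpgds (0.0368), and 116 of all genes were called. With both left out, 3 members were called, namely Alox5ap (limma adjusted p = 0.00190), Ptges (0.00916) and Ptgs2 (0.0498), beside 1492 of all genes, and 8 of 10 members and 30.1% of all genes had an exact permutation p of at most 0.05. With all 12 lungs that share of all genes was 11.2%, so that leaving out these lungs raised the counts among all genes as well as among the members. Neither lung is marked in the labels. In 20 or 21 alternatives each, the log2 fold change of the 8 members above 0 never turned below 0, and the range was widest for Ptges (0.37 to 1.64) and for Alox5ap (1.39 to 2.28).

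The order of the mean TPM levels was Alox5ap, Lta4h, Ptgs1, Ptges, Ltc4s, Alox5, Alox12, Ptgs2, Hpgds and Alox15 in controls, and differed in knockouts only by Ltc4s standing before Ptges. Alox5ap exceeded Lta4h in all 6 lungs of each genotype. Ltc4s exceeded Alox5 in all 6 controls, and in all 6 knockouts Ptgs1 exceeded Ltc4s and Hpgds exceeded Alox15. Several other neighbours were not apart beyond their spread. In controls, Ptges exceeded Ltc4s in 1 of 6 lungs, Alox5 exceeded Alox12 in 3 of 6 and Ptgs2 exceeded Hpgds in 3 of 6. In knockouts, Ltc4s exceeded Ptges in 4 of 6, Alox5 exceeded Alox12 in 5 of 6 and Ptgs2 exceeded Hpgds in 3 of 6.

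Ratios of pairs of members within a lung are given as values without a test. The log2 ratio of Lta4h to Ltc4s, the leukotriene B4 branch over the cysteinyl branch, had a median of 1.05 in controls (0.73 to 1.26) and 0.60 in knockouts (0.36 to 0.92). The log2 ratio of Alox5ap to Alox5 had a median of 3.77 (3.15 to 4.27) and 4.77 (3.30 to 5.16). Ptgs2 was below Ptgs1 in every lung, with a median log2 ratio of -3.51 (-4.33 to -2.42) in controls and -3.30 (-3.69 to -1.82) in knockouts. Alox15 was below Alox5 in every lung, with medians of -3.42 (-5.15 to -2.05) and -4.74 (-7.02 to -3.05). All 4 ratios overlapped between the genotypes.

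Markers of myeloid cells were higher in the same lungs as several members. All 8 neutrophil markers had a limma unadjusted p of at most 0.05, higher in knockouts, with a median log2 fold change of 1.72 and none called. Their sum ran from 288 to 2537 TPM with a median of 751 in controls and from 1054 to 7629 TPM with a median of 3259 in knockouts. Of the 9 monocyte and interstitial macrophage markers 8 did so (median 1.65), with sums from 169 to 2312 TPM and from 398 to 3138 TPM. The control with the highest sum of both lists was replicate 1, the knockout with the lowest sum of both was replicate 2, and these were also the highest control and the lowest knockout for Alox5ap and for Ptges. Among 9 alveolar macrophage markers 1 had such a p (median 0.38, sums 586 to 1031 and 666 to 1803 TPM). Of the 9, 8 had a log2 fold change above 0. The other was Car4, the highest of the list in controls (means 415 and 242 TPM, log2 fold change -0.81). Chil3, the marker with such a p, had means of 210 and 677 TPM (log2 fold change 1.76). The sums therefore mix opposite changes. No marker of these lists was at 0 in any lung. Among 7 megakaryocyte and platelet markers, the cells in which Alox12 and Ptgs1 are well known, 0 had a limma unadjusted p of at most 0.05 and 0 were called (median 0.040, sums 77.3 to 179.6 and 85.7 to 252.2 TPM). Among non-myeloid cells, 1 of 5 endothelial markers had such a p, lower in knockouts (median -0.36, sums 961 to 1644 and 851 to 1523 TPM), and the 3 tested of 4 mesothelial markers were higher in knockouts (median 1.2, sums 7.03 to 90.3 and 47.1 to 135 TPM) with 0 called. The part of these cell types in the members' values was not tested.

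**Figure D3:**
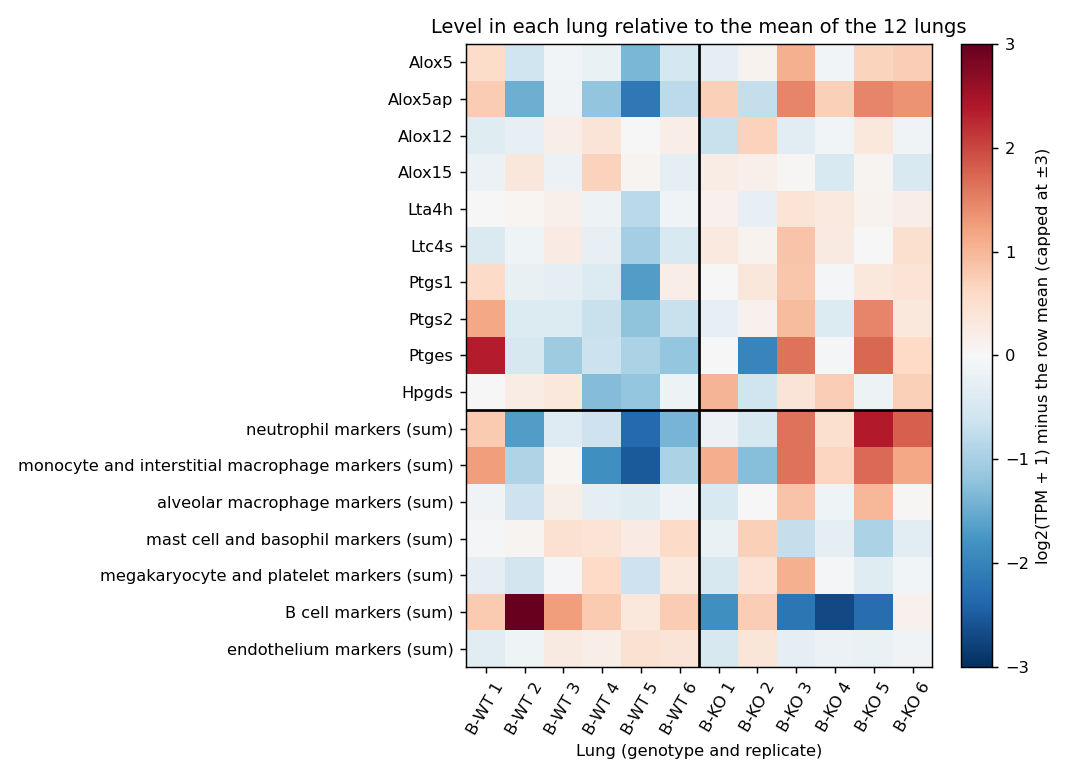
Level in each lung (x axis) minus the mean of the 12 lungs, on log2(TPM + 1), for the 10 genes (upper rows) and for the summed TPM of 7 marker lists (lower rows), red above and blue below the mean, with colours capped at 3. Control replicate 1 was red and knockout replicate 2 blue for Alox5ap, Ptges and the monocyte and interstitial macrophage sum, against most lungs of their genotype.

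With the genotype means taken off, several members moved together over the 12 lungs. Pearson r on log2(TPM + 1) was 0.84 for Ptgs2 with Alox5 and for Ltc4s with Lta4h, 0.83 for Ptgs1 with Alox5, 0.81 for Ptges with Ptgs2, with Alox5ap, and for Alox5ap with Alox5, and 0.71 for Ptgs2 with Ptgs1. Alox12 had r below 0 with all other tested members, down to -0.68 with Hpgds. Without control replicate 1 and knockout replicate 2, a setting added after the values were seen, r was 0.77 for Ptgs2 with Alox5, 0.89 for Ltc4s with Lta4h and for Ptges with Ptgs2, and 0.84 for Alox5ap with Alox5. It was 0.29 for Ptges with Alox5ap, and for Alox12 it lay above 0 with some members, up to 0.46 with Ptgs2. These are descriptions over 12 or 10 lungs that share a library total, and no p is given. Among the genes most like the members by this measure were Syap1 (0.98) for Alox5, Sirpb1c (0.997) for Alox5ap, Tm4sf1 (0.92) for Alox12, Wnt9a (0.97) for Lta4h, Nox4 (0.92) for Ltc4s, Gm45871 (0.97) for Ptgs1, Ch25h (0.97) for Ptgs2 and Gm2606 (0.98) for Ptges. Also among the 3 most alike were Mal and Vps35 for Alox5, Fcgr3 and Fxyd5 for Alox5ap, Klhl5 for Alox12, Eif3e and Ppp1r3f for Lta4h, Kank2 and Smug1 for Ltc4s, Zfp719 and Ocrl for Ptgs1, Atf2 and Vezt for Ptgs2, Rhoq and Timp1 for Ptges, and Cxcr3 and Apol7e for Hpgds, all with r of 0.87 or more over the 12 lungs and of 0.83 or more without those 2. No gene was named for Alox15, which was too low for the test.

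Around the 10 enzymes, 59 further genes supply their substrate, use or break down their products, or carry and receive them. Of these 44 were tested and 0 were called, with 8 higher and 3 lower at a limma unadjusted p of at most 0.05 (25.0%, against 12.5% of all genes). Their median log2 fold change was 0.18, against 0.10 for all genes. Of the 11, 8 had a two-sided exact permutation p of at most 0.05, from 0.0173 for Cyp2j9 to 0.0455 for Pla2g7. It was above that for Fpr1 (0.0628), Fpr2 (0.0693) and Tbxa2r (0.0779). Since the 11 were picked by the limma p on the same values, this share adds no support. Outside the 11, Pla2g2d also had such an exact p (0.0303), and 11.2% of all genes tested did. Without control replicate 1, 5 of the 44 were called (Pla2g7, Tbxas1, Dpep1, Fpr2 and Fpr1), as were 3.99% of all genes. Without knockout replicate 2 as well, 15 of the 44 and 9.85% of all genes were called.

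**Figure D4:**
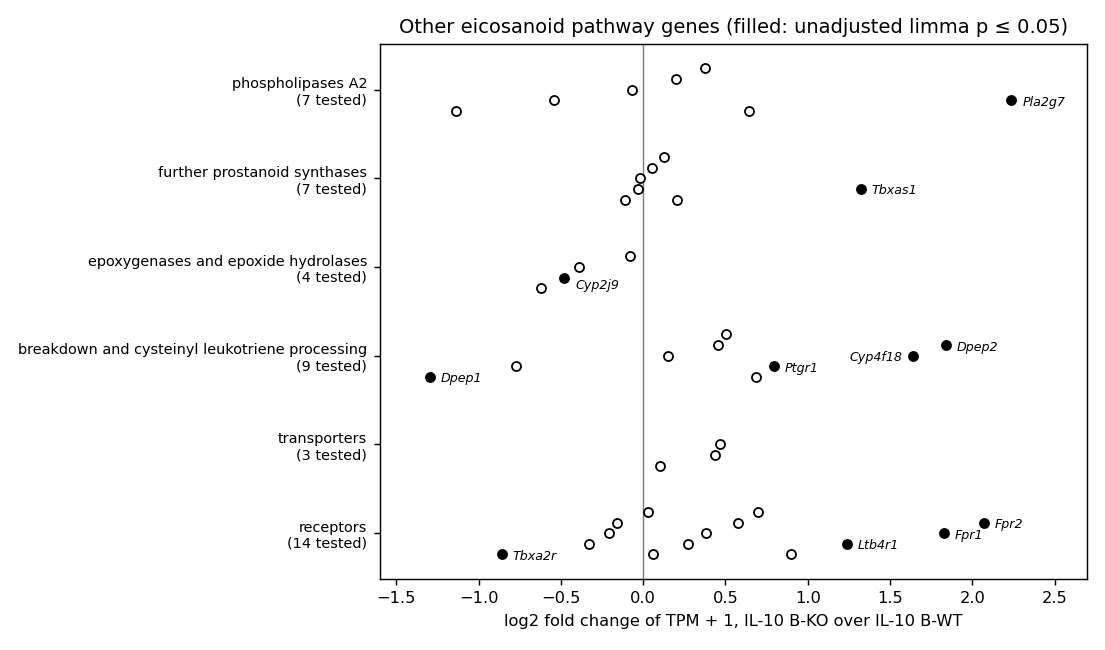
Log2 fold change of TPM + 1 (x axis, IL-10 B-KO over IL-10 B-WT) of the 44 tested genes around the enzymes, by role (y axis, points spread vertically for legibility), filled and named where the limma unadjusted p was at most 0.05. The 11 filled points ran from -1.30 for Dpep1 to 2.24 for Pla2g7, and none was called.

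On the substrate side, 1 of 7 tested phospholipases A2 had an unadjusted p of at most 0.05. This was Pla2g7, which encodes the enzyme that cleaves platelet-activating factor, at 37.7 ± 63.1 TPM in controls and 118 ± 77.0 TPM in knockouts (SD, n = 6 each, log2 fold change 2.24, limma adjusted p = 0.321). The highest control was replicate 1, at 166 TPM, and without it the log2 fold change was 2.87 (limma adjusted p = 0.0334). Pla2g2d, a secreted phospholipase of lymphoid tissue, had a log2 fold change of -1.14 (limma adjusted p = 0.441, exact permutation p = 0.0303). Its mean in controls rested on replicate 2, at 31.6 TPM, and 4 knockout lungs lay below every control. Pla2g4a, the cytosolic enzyme that feeds both pathways, was at 2.54 to 13.3 TPM in controls and 4.64 to 17.5 TPM in knockouts (log2 fold change 0.64, limma unadjusted p = 0.113). None of the 4 further lipoxygenase genes passed the filter on low values.

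Among 7 tested prostanoid synthases beyond the members, 1 had an unadjusted p of at most 0.05. This was Tbxas1, the thromboxane synthase gene, at 9.79 ± 9.01 and 23.1 ± 12.1 TPM (SD, n = 6 each, log2 fold change 1.32, limma adjusted p = 0.326). The other 6 lay between -0.11 and 0.20 on the log2 scale. All 4 tested epoxygenase and epoxide hydrolase genes had a log2 fold change below 0. Of these Cyp2j9 was at -0.48, with 3.85 ± 0.76 and 2.50 ± 0.74 TPM (SD, n = 6 each, limma adjusted p = 0.328).

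Of 9 genes that break down prostaglandins and leukotrienes or process cysteinyl leukotrienes, 3 were higher and 1 was lower at an unadjusted p of at most 0.05. Dpep2 and Dpep1 both encode dipeptidases that turn leukotriene D4 into leukotriene E4, and they stood on opposite sides. Dpep2 was at 9.17 ± 7.87 and 33.4 ± 24.8 TPM (log2 fold change 1.84, limma adjusted p = 0.298), and Dpep1 at 29.6 ± 16.6 and 10.2 ± 4.85 TPM (log2 fold change -1.30, limma adjusted p = 0.330), with n = 6 and the SD given for each. The table lists a second gene model for Dpep2, whose reads may be split between them. Dpep1 was lower in all 6 knockout lungs than the control median of 32.6 TPM, and the lowest control was again replicate 1, at 5.11 TPM. Cyp4f18, which inactivates leukotriene B4 in neutrophils, had a log2 fold change of 1.64 and Ptgr1, a reductase of both lipid families, of 0.79 (limma adjusted p = 0.326 and 0.352). Hpgd, the first enzyme of prostaglandin breakdown, was the most abundant at 433 ± 162 and 282 ± 202 TPM (SD, n = 6 each, log2 fold change -0.77, limma adjusted p = 0.458). Its highest lung was knockout replicate 2, at 659 TPM, and its lowest control was replicate 1, at 170.4 TPM.

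Of 14 tested receptors, 3 were higher and 1 was lower at an unadjusted p of at most 0.05. The higher were Fpr2, which binds lipoxin A4 as well as formylated peptides (log2 fold change 2.07), its relative Fpr1 (1.83) and Ltb4r1, the high-affinity leukotriene B4 receptor of neutrophils (1.24), with limma adjusted p of 0.369, 0.362 and 0.328. Without control replicate 1, the highest control for Fpr2 (239.4 TPM) and Fpr1 (99.7 TPM), these were 2.82, 2.46 and 1.44 (limma adjusted p = 0.0365, 0.0391 and 0.0803). Ltb4r1 stood at 2.52 to 10.3 TPM in controls and 4.12 to 33.9 TPM in knockouts. The lower was Tbxa2r, the thromboxane receptor gene, at 14.3 ± 5.54 and 7.97 ± 5.08 TPM (SD, n = 6 each, log2 fold change -0.86, limma adjusted p = 0.381), so that Tbxas1 and Tbxa2r, the synthase and the receptor of thromboxane, lay on opposite sides. Tbxa2r is known in smooth muscle as well as in platelets. Of the 5 smooth muscle and pericyte markers 4 were lower in knockouts at an unadjusted p of at most 0.05 and 1 of these was called (Pdgfrb, limma adjusted p = 0.0456), with a median log2 fold change of -0.91 and sums of 225 to 788 TPM in controls and 97.5 to 435 TPM in knockouts, and the part of these cells was not tested. Ptger2 and Ptger4, the prostaglandin E2 receptors that raise cyclic AMP, had log2 fold changes of 0.90 and 0.70 (limma adjusted p = 0.433 and 0.460). The 3 tested transporter genes lay between 0.10 and 0.47. Fpr1, Fpr2, Cyp4f18 and Ltb4r1 are well known in neutrophils, whose markers are given above, and the part of these cells was not tested.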

How the data were processed

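Whole-lung RNA of 12 mice was sequenced, 6 with the genotype IL-10 B-WT and 6 with IL-10 B-KO. The authors deposited TPM per gene, 1 column per library, without pooling. The submitters' processing notes name fastp, HISAT, RSEM and GRCm38.p5, and the roles and versions are not given in the sources used here. TPM keep no depth, so that read numbers are unknown and the precision rests on the spread between lungs. Columns summed to between 991646 and 994430, 0 columns of sample values were left unused, and 0 pairs of libraries were identical.

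The 15148 genes that reached 1 TPM in 6 or more libraries were tested with limma 3.58.1 in R 4.3.3. Its lmFit and trended eBayes were run on log2(TPM + 1), genotype was fitted alone, and p-values had Benjamini-Hochberg adjustment over all of them. A fold change on this scale understates the change of low genes. Exact permutation tests of mean log2(TPM + 1) were two-sided. The scripts were first tested on simulated data. Gene positions are from GENCODE M21 (GRCm38), promoters from RefSeq (GRCm38.p6). Further software was matplotlib 3.10.9, SciPy 1.17.1, pandas 2.3.3 and NumPy 2.4.6 under Python 3.11.15. Nothing says whether the mice shared litters, cages or sequencing runs, and no batch is given.

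The members, the 59 further genes and the marker lists were chosen with earlier results of these data known. Besides the members, genes were named where the limma unadjusted p was at most 0.05, where they had 1 of the 2 largest log2 fold changes in either direction among the rest, or where they were among the 3 most alike to a member, of which some are not reported here. Pla2g4a and the genes below the filter were named after their values were seen. Fam213b is listed as Prxl2b and Cyp2c44 as Cyp2c23. Alternatives were another pseudocount (0.1), other filters, 3 other scalings, a block for the replicate number, array quality weights, and leaving out lungs.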

Additional observations from a re-analysis of the deposited data

Results flagged for a closer look

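In 9 of 58 groups of 6 lungs examined (the members and the genes named around them in the pathway, each genotype), the highest lung was far from the rest, with a gap to the next lung that made up more of the group's range than Dixon's critical value for 6 samples. Chance gives this in about 5% of groups with normally distributed values, but the count here cannot be set against that figure. Pla2g4a, Pla2g5, Ptgdr2 and Ptgfr were examined because they had been named after their values were seen, and TPM were used without a log. The groups are also not independent, since the same lungs enter each. Of the 9, 7 were IL-10 B-WT replicate 1. Its Ptgs2 was 8.95 TPM with the next control at 2.33, and its Ptges was 91.1 TPM with the next at 11.8. For the genes around the enzymes it held 13.26 TPM of Pla2g4a (next 5.60), 165.95 TPM of Pla2g7 (next 23.7), 9.31 TPM of Ptger2 (next 3.08), 239.4 TPM of Fpr2 (next 25.0) and 99.7 TPM of Fpr1 (next 13.2). The same lung had the highest neutrophil and monocyte marker sums of the controls, and their part was not tested. The others were in IL-10 B-WT replicate 2, where Pla2g2d was at 31.64 TPM with the next control at 2.01 and Pla2g5 at 7.48 TPM with the next at 0.27, in the lung that also had the highest B cell marker sum (753 TPM).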

How the results depend on the processing

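The number of members called was 0, and it was 1 with array quality weights, 1 without IL-10 B-WT replicate 1, 3 without that library and IL-10 B-KO replicate 2 together, 3 at an unadjusted p of at most 0.05, and 0 to 1 with any 1 library left out. For the 59 further genes, 0 were called, against 2 with weights, 15 without both libraries, 11 at an unadjusted p and 0 to 5 with 1 library left out. Of all genes 75 were called, against 6 without a filter, 27 after rescaling without immunoglobulin genes, 39 after quantile normalization, 36 after median centring, 318 with weights, 1492 without both libraries, 1899 at an unadjusted p and 19 to 604 with 1 library left out. Members with an exact permutation p of at most 0.05 numbered 2, against 4 after median centring, 8 without both libraries and 2 to 5 with 1 library left out. The removal of both libraries was chosen because they stand against their genotype, which by construction widens the difference. For the other settings the cause was not tested.

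The labels number the mice 1 to 6 in each genotype. Same-numbered lungs did not deviate together (r of -0.29 to 0.05, with 0 of 6 lungs closest to their own number). These values cannot show whether the numbers pair mice by litter, cage or run, which the labels do not give. With the replicate number as a block, 45 of all genes and 0 members were called.

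Only Alox12 turned its sign, in 3 leave-one-out fits (range of the log2 fold change -0.20 to 0.066). The median log2 fold change of all genes was 0.10, and 0.052 after rescaling, 0.0054 after quantile normalization and -0.0085 after median centring, where that of the members was 0.63, 0.56 and 0.57. TPM give no read numbers, so that the limit of detection for Alox15 and for low genes such as Ptgs2 and Hpgds is unknown.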

Other observations

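Some genes around the enzymes were too low for the test across genes and are given as values without a test, having been picked after their values were seen. Ptgdr2, the prostaglandin D2 receptor of Th2 cells and innate lymphoid cells, was at 0.44 to 1.19 TPM in the controls and 0 to 0.48 TPM in the knockouts, where 5 of 6 lungs lay below every control, while Hpgds, the synthase of its ligand, had the higher mean in the knockouts. Ptgfr, the prostaglandin F receptor gene, had a mean of 1.14 ± 0.721 TPM in controls and 0.450 ± 0.271 TPM in knockouts (SD, n = 6 each), and no knockout lung was above the control median. Pla2g5, a secreted phospholipase A2 gene, stood at 7.48 TPM in control replicate 2 and at 0 to 0.27 TPM in the other 11 lungs.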
